A study of Mus musculus with 24 samples.

Results

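The comparison of 6 double knockout thymuses, lacking both p27 and stathmin, with 6 stathmin knockout thymuses covers 12 of the 24 arrays of the series. The 12 arrays were taken by their genotype labels, and 29528 of 41174 gene probes, standing for 20009 genes, were tested on them. Both groups lack stathmin (Stmn1) by their labels, so by genotype label the groups differ in the loss of p27 (Cdkn1b). All mice were C57BL/6 and 15 weeks old, and each genotype had 3 females and 3 males, whose sex the labels do not tie to single arrays. Each double knockout was hybridised on the same slide as 1 stathmin knockout, 1 p27 knockout and 1 wild-type thymus, giving 6 slides. Thymus RNA carried Cy5, and a pool of RNA of fibroblasts of all genotypes carried Cy3 on every array. A value below is the log2 ratio of thymus to that fibroblast pool, so a negative level means only that the pool held more. The labels describe the mice as knockouts and do not say which exons were removed.

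p27 binds and inhibits the cyclin-dependent kinases that drive cells from G1 into S phase, and it restrains the size of the thymus and of other organs in mice. Stathmin binds tubulin dimers and destabilises microtubules, and p27 is known to bind stathmin and to limit that activity. The study's title names the role of both proteins in proliferation in the animal, and setting the double knockout against the stathmin knockout asks what p27 loss changes where stathmin is already absent.

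The arrays carried a thymus profile. Genes of double-positive thymocytes had a median log2 ratio of 5.11 to 5.88 in double knockouts and 4.52 to 5.88 in stathmin knockouts, whereas fibroblast and matrix genes lay at -3.43 to -2.71 and -3.23 to -2.49 in the same order. Between 62.8% and 77.9% of Cy5 spots were well above background in double knockouts and between 66.9% and 83.5% in stathmin knockouts. The 99th percentile of Cy5 intensity was 248 ± 45 kilounits in double knockouts and 240 ± 71.8 kilounits in stathmin knockouts (SD, n = 6 each). The stathmin knockout replicate 3 was the dimmest of the 12 in Cy5, at 130.7 kilounits, and the least like the others, with a mean correlation of 0.841 with the other 11. Skeletal muscle genes stood high in double knockout replicates 2 and 4, at medians of 4.55 and 4.73, and in stathmin knockout replicates 5 and 6, at 3.53 and 2.8, against 0.32 to 0.82 and -0.04 to 0.73 in the others. Each genotype had a fixed place on the slide, so array position and genotype cannot be told apart.

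Cdkn1b, the gene of p27, was the check on the labels. Its brighter probe (A_51_P146126) read -1.41, -0.62 and 0.97 at the lowest, median and highest of 5 double knockouts, against 1.21, 1.58 and 2.3 in 6 stathmin knockouts. The groups did not overlap, although double knockout replicate 2, the array at 0.97, came closest to the stathmin knockouts. Its raw Cy5 signal was 29100 units, where the other 4 double knockouts had 6510 to 10200 and the stathmin knockouts 22000 to 42600. The genotype label of this array is therefore in doubt on this probe, and results are also given without slide 2, where the Cdkn1b difference was -2.7. The spot of double knockout replicate 1 was marked as an outlier and left out. The difference was -2.23 ± 0.42 (SE), or 4.69-fold lower, with the double knockout lower on 5 of 5 slides, and limma's moderated test gave an adjusted p of 0.98. An exact two-sided sign-flip permutation test over the 5 slides gave p = 0.0625, the smallest they allow.

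A second Cdkn1b probe (A_51_P169173) is spotted 10 times and did not pass the filter on dim probes. It read -0.96, -0.63 and -0.25 in double knockouts, against -0.17, 0.35 and 1.44 in stathmin knockouts. The groups were again apart, and the probe was well above background on 0 of 6 double knockout arrays and on 5 of 6 stathmin knockout arrays, so the double knockout level is only a bound and the fold is at least 2.03. Double knockout replicate 2 read -0.25 on it, the highest of its group and below every stathmin knockout, and was not well above background. The measured difference was -1.14 ± 0.24, lower on 6 of 6 slides, with an exact sign-flip permutation p of 0.0312, the smallest that 6 slides allow. The third probe (A_52_P673863) was well above background on 3 double knockout and 1 stathmin knockout arrays and averaged -0.61 and -0.54.

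Stmn1, knocked out in both genotypes by the labels, gave 2 probes at different levels. A_51_P495641 had a median of 1.81 in double knockouts and 2.02 in stathmin knockouts, and A_52_P319161 a median of -3.12 in double knockouts and -3.18 in stathmin knockouts. Both groups overlapped on both probes. The differences were -0.13 ± 0.19 and -0.24 ± 0.25 (SE, limma's adjusted p 0.98 for both). Wild-type arrays averaged 3.54 on A_51_P495641 and 3.1 on A_52_P319161. On A_51_P495641 both knockouts kept strong raw Cy5, 241000 to 569000 units in double and 251000 to 489000 in stathmin knockouts. Wild type had 192000 to 655000 units there. Which part of the gene each probe reads was not tested.

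**Figure D1:**
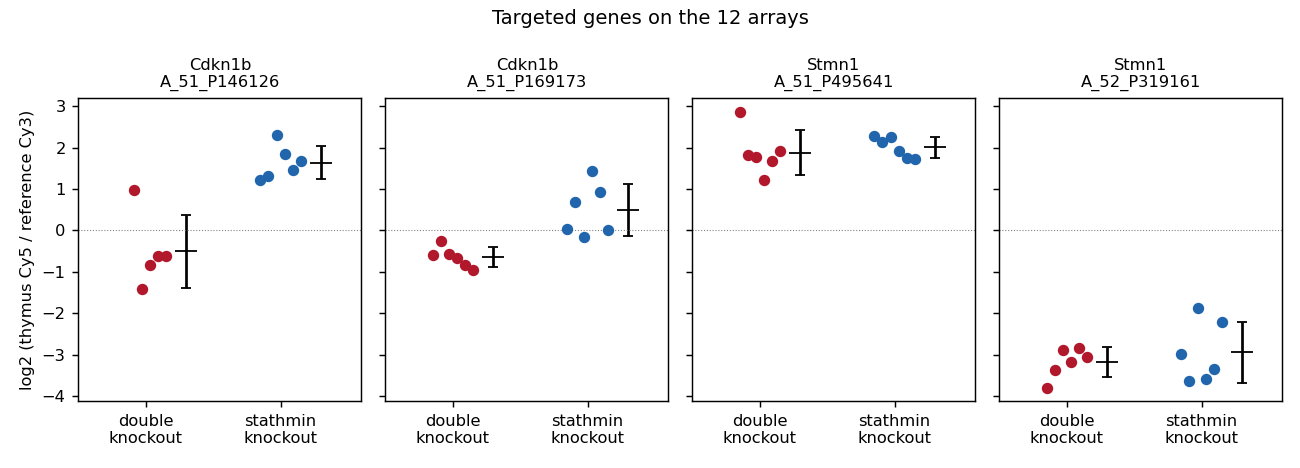
Log2 ratio of thymus over the fibroblast pool (vertical axis) for 2 Cdkn1b and 2 Stmn1 probes, each point 1 array, with the mean and SD at the right of each group. Double knockouts lie below stathmin knockouts on both Cdkn1b probes without overlap, and the groups overlap on both Stmn1 probes.

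No probe passed an adjusted p of 0.05 in limma's moderated test with slide as a block (0 of 29528, the smallest adjusted p was 0.946). At an unadjusted p under 0.05 there were 687 probes (2.33%), 425 higher in the double knockout (1.44%) and 262 lower (0.887%). Of these, 61.9% were higher in the double knockout. That share was 47.8% without background correction, 47.4% on the deposited ratios, 47.8% on Cy5 alone and 28.6% on the authors' deposited table. The last follows spot brightness rather than the ratio, so it is not a like measure. Every gene named from here on therefore failed the correction, and its values are given with that standing.

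The widest differences lay among the natural killer receptor genes, which in the mouse sit on chromosome 6 in gene order before Cdkn1b. Ly49 receptors, named Klra, are lectin-like receptors by which mouse natural killer cells read MHC class I molecules, and the number and kind of Klra genes differ between inbred strains. Klra10, Klra9, Klra3 and Klra8 each had a probe that read lower in the double knockout on 6 of 6 slides. RefSeq lists a start for each of them in GRCm38.p6, all on the minus strand, and the 300 bases around each start, most of them upstream, are shown because the genes are relatives that all read lower. Capitals mark, in each, the longest run of letters that also occurs in another of the 4.
Klra10: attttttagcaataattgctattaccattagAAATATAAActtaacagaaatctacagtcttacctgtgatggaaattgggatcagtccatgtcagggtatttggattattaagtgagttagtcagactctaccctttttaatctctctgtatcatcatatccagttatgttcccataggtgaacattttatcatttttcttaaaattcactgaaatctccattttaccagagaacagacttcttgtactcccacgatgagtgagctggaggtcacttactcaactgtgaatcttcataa
Klra9: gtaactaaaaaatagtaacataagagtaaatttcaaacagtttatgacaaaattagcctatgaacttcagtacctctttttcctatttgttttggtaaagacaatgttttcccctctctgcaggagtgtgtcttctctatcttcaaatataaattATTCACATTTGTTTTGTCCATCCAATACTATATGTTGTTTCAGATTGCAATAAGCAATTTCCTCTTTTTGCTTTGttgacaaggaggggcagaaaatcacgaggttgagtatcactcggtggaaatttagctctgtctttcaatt
Klra3: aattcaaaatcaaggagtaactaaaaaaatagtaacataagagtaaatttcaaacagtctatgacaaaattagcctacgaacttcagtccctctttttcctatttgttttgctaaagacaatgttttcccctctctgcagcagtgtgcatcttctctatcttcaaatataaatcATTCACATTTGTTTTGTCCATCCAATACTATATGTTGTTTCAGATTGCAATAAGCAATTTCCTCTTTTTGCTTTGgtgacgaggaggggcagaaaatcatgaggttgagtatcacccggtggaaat
Klra8: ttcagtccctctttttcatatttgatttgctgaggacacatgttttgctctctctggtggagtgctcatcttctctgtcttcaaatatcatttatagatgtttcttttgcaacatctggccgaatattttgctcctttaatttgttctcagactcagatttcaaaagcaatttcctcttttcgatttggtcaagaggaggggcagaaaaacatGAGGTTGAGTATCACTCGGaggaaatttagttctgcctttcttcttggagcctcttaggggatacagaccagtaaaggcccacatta
These windows are chr6:130281879-130282178 for Klra10, chr6:130193063-130193362 for Klra9, chr6:130337577-130337876 for Klra3 and chr6:130129849-130130148 for Klra8. Klra9 and Klra3 share a run of 75 bases, found in 3 of the 32851 listed promoters (0.00913%). At the best single shift with no gaps allowed, 68.0% of 281 overlapping bases are identical. Inserted or missing bases put parts of the windows out of register, so that share is a lower limit on their likeness. Klra8 shares 19 bases with Klra9, a run found in 5 promoters, among them that of Klra6. The Klra10 window shares no more than 9 bases with the others, a run found in 224 promoters (0.682%). Whether the listed starts mark the same part of each gene was not tested, so the windows may not be like regions. Both strands were searched.

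Klra10 (Ly49J) read 0.09, 0.68 and 3.37 at the lowest, median and highest of the double knockouts, against 2.37, 4.6 and 4.82 in stathmin knockouts. The ranges crossed through 1 array each, double knockout replicate 2 at 3.37 and stathmin knockout replicate 1 at 2.37. The probe was well above background on 3 of 6 double knockout arrays and on all 6 stathmin knockout arrays, so the double knockout level rests partly on signals at background. The measured difference was -3.17 ± 0.44, between -4.42 and -1.27 on the 6 slides, with an adjusted p of 0.946 by limma's moderated test. In raw Cy5 signal stathmin knockout replicate 1 lay within its group, at 6560 units where the others had 2730 to 8710, whereas double knockout replicate 2 stood apart with 1920 units where the others had 198 to 309.

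Klra9 (Ly49I) read 0.79, 2.28 and 3.71 in double knockouts, against 2.52, 4.59 and 4.98 in stathmin knockouts. Klra3 (Ly49C) read 1.01, 1.88 and 3.21 in double knockouts, against 1.94, 3.86 and 4.94 in stathmin knockouts. Klra8 (Ly49H, an activating receptor) read 0.79, 1.62 and 2.79 in double knockouts, against 1.99, 3.24 and 3.87 in stathmin knockouts. As for Klra10, double knockout replicate 2 was the highest double knockout and stathmin knockout replicate 1 the lowest stathmin knockout for each of these 3 genes. The differences were -2.06 ± 0.37 for Klra9, -1.8 ± 0.32 for Klra3 and -1.49 ± 0.26 for Klra8. The 2 other Klra3 probes differed by less, -1.41 ± 0.33 and -0.91 ± 0.29, and on slide 1 they stood at 0 and 0.71. Without slide 1, Klra9, Klra3 on its first probe and Klra8 differed by -2.38, -2.1 and -1.68. Without slide 2 these 3 differences were -2.22, -1.91 and -1.57. Klra10 differed by -3.55 without slide 2. Klra genes are close relatives, and how far a probe of one also binds RNA of another was not tested.

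Other receptors of the same stretch also read lower. Klrb1c, which encodes the NK1.1 antigen, had a difference of -1.05 ± 0.22 on one probe and -0.56 ± 0.28 on its brighter probe. Klrb1 had a median of 0.12 in double knockouts and 1.66 in stathmin knockouts, but its probe was well above background on 1 of 6 double knockout and 5 of 6 stathmin knockout arrays. It was thus tested mainly through the stathmin knockouts, and its measured difference of -1.66 ± 0.37 has no settled size. Klrb1a differed by -1.21 ± 0.29 and Klrc1, which encodes the inhibitory receptor NKG2A, by -1.18 ± 0.45 on one probe and -1.02 ± 0.26 on another, each lower on 5 of 6 slides. Klra21 and Klra23 differed by -1.36 ± 0.44 and -1.03 ± 0.34.

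Receptor genes did not all lie on one side. Klra16 had a median of 4.45 in double knockouts and 2.69 in stathmin knockouts, a difference of 1.45 ± 0.4, higher on 5 of 6 slides, and a second probe differed by 1.34 ± 0.39 on 6 of 6. Klra12 had a median of 0.79 in double knockouts and -0.43 in stathmin knockouts, 1.2 ± 0.24 higher, and Klra18 a median of 0.74 in double knockouts and -0.72 in stathmin knockouts, 1.11 ± 0.3 higher. Both were higher on 6 of 6 slides. Klra15 and Klra17 differed by 1.12 ± 0.37 and 0.5 ± 0.17. Klrk1, which encodes NKG2D, differed by 0.19 ± 0.36, Klrd1, which encodes CD94, by 0.25 ± 0.34 and Klra6 by -0.14 ± 0.24, each smaller than its SE.

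Over the whole list, 33 of 41 receptor genes were tested, with a median difference of -0.23 beside -0.01 over all 20009 genes. At an unadjusted p under 0.05, 5 were higher and 10 lower, against 1.58% and 0.885% of all genes, and 3 to 5 were higher and 8 to 13 lower with 1 slide left out. Among the 25 whose probe was well above background on all 12 arrays, 2 were higher and 8 lower, and on Cy5 alone 5 of 33 were higher and 16 lower. On 6 of 6 slides 2 were higher and 5 lower, against 1.32% and 0.67% of all genes. None of the 33 passed the adjusted threshold. The markers of natural killer and cytotoxic cells that lie outside the list were not lower as a group. Of 16 of them tested, 15 had a difference above 0, where 47.2% of all genes did, with a median of 0.31, and the list's median level was 1.7 to 2.67 in double knockouts and 0.68 to 2.54 in stathmin knockouts. Gzmb, the protease granzyme B, differed by 0.76 ± 0.25 and Xcl1, a chemokine, by 0.65 ± 0.31. In whole tissue, fewer cells of a type and less RNA per cell cannot be told apart.

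**Figure D2:**
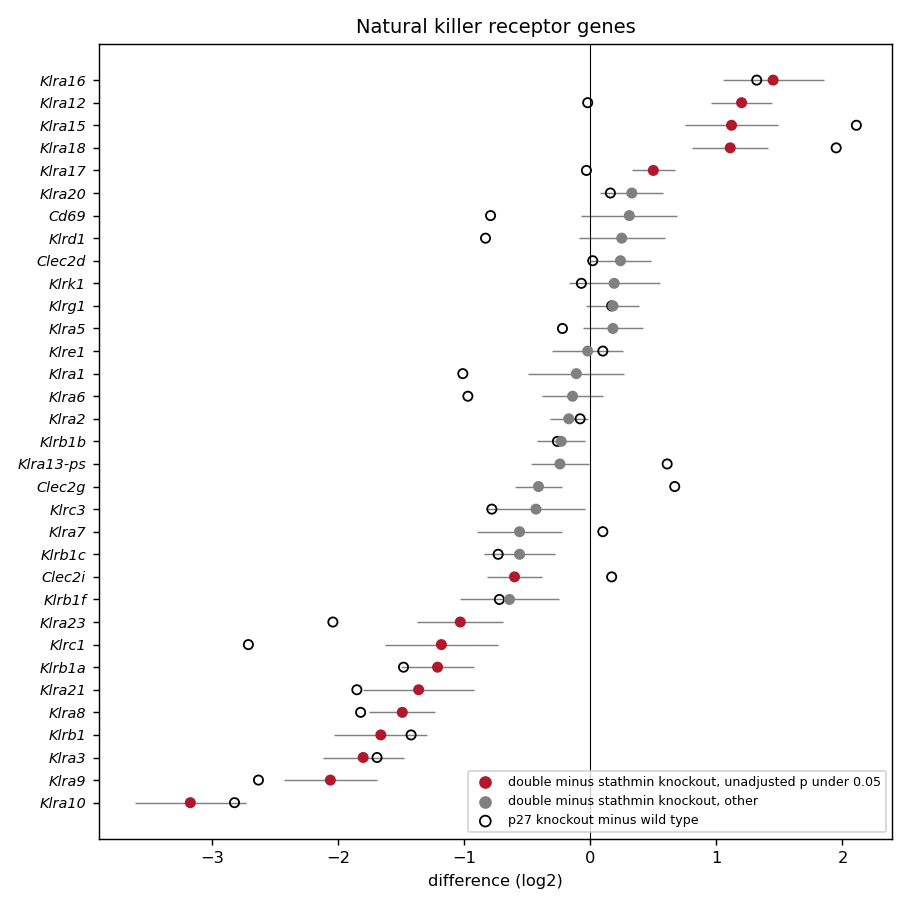
Difference in log2 ratio (horizontal axis) for the 33 tested natural killer receptor genes, 1 probe per gene. Filled points are the double minus the stathmin knockout with its SE, red where the unadjusted p was under 0.05, and open points are the p27 knockout minus wild type. Klra10 lies lowest at -3.17 and Klra16 highest at 1.45.

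The same genes were read in the p27 knockout against wild type, which shares no array with this comparison but shares its slides. There the differences were -2.82 for Klra10, -2.63 for Klra9, -1.69 for Klra3, -1.82 for Klra8 and 1.32 for Klra16. Klra12 and Klra17, which read higher in the double knockout, differed by -0.02 and -0.03 there. The Klra12 probe was not well above background on wild-type replicates 4, 5 and 6, at 161, 184 and 167 units of raw Cy5. Nor was it on p27 knockout replicate 6, at 169 units. The Klra12 value in this pair of groups therefore rests partly on signals at background, as does its difference of differences. The difference between the 2 differences was -0.35 ± 0.65 for Klra10 and 1.22 ± 0.4 for Klra12 (adjusted p 0.763 and 0.204, limma on 24 arrays with slide as a block).

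**Figure D3:**
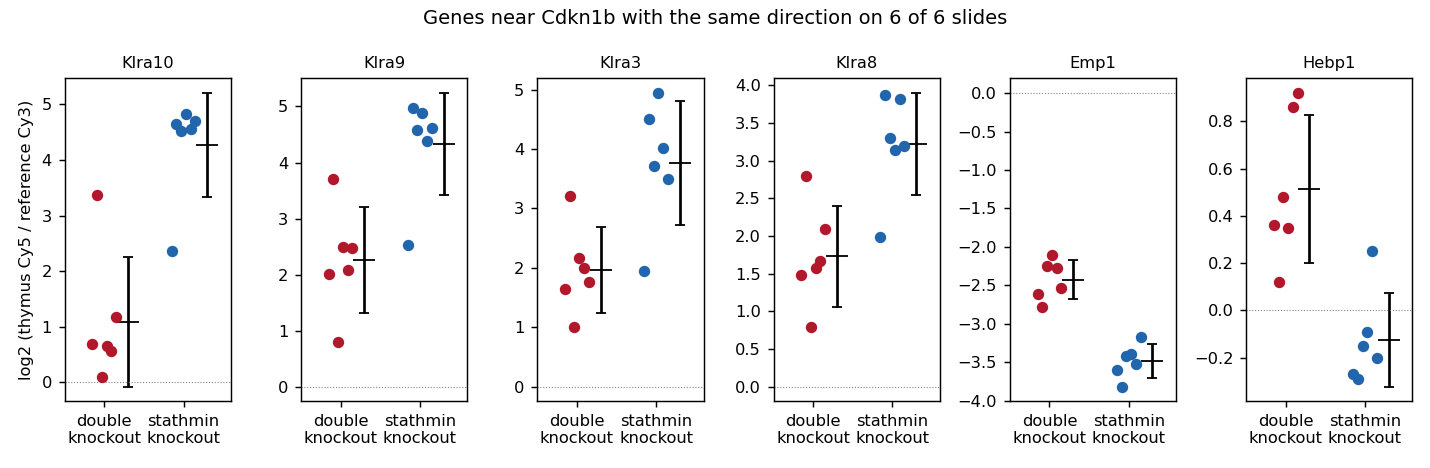
Log2 ratio of thymus over the fibroblast pool on each array (points) with the mean and SD, for 4 receptor genes and 2 other genes near Cdkn1b. Emp1 has no overlap between groups, and 1 double knockout stands high and 1 stathmin knockout low for Klra10.

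The lowest p-values gathered on chromosome 6. Of the 10 genes with the lowest p, 6 lay within 100 measured places of Cdkn1b in gene order, 1 higher and 5 lower, and of the 50 with the lowest p, 11 did. Over all 20009 genes, 187 lie there. That range takes in Cdkn1b itself, the targeted gene, which read lower and is part of these counts wherever its p ranked low enough. Among the 49 measured genes just before Cdkn1b, 22.4% had an unadjusted p under 0.05, 2 higher and 9 lower. Among the 50 just after it, 16% did, 6 higher and 2 lower, beside 2.47% of all genes, 5.44% on chromosome 6 and 2.52% from 300 places before Cdkn1b to the start of that order. The fitted differences of the immediate neighbours had both signs, but most were small beside their SE. Of the 10 places on either side, only Hebp1, Fam234b and Emp1 had an unadjusted p under 0.05. Gpr19 and Ddx47, at -0.27 ± 0.22 and 0.3 ± 0.26, had no settled direction. Whether the differences around Cdkn1b go with the loss of p27 or with DNA linked to the targeted gene was not tested.

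Emp1, which encodes epithelial membrane protein 1 and lies 9 places after Cdkn1b, had the lowest p of all genes. It read -2.78, -2.4 and -2.1 in double knockouts, against -3.82, -3.47 and -3.17 in stathmin knockouts. The groups did not overlap, as was so for 14 genes with the double knockout above (0.07%) and 6 with it below (0.03%). The difference was 1.06 ± 0.14 (2.08-fold), between 0.64 and 1.29 on the 6 slides, with an adjusted p of 0.946 by limma. It was 1.19 in the p27 knockout against wild type. Double knockout replicate 2 had the lowest Emp1 value of its group, and without slide 2 the difference was 1.06.

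Hebp1, a heme-binding protein, lies 5 places after Cdkn1b. It had a median of 0.42 in double knockouts and -0.17 in stathmin knockouts, with a difference of 0.64 ± 0.15 on 6 of 6 slides, and the groups overlapped through double knockout replicate 2, at 0.12, and stathmin knockout replicate 5, at 0.25. Without slide 2 it was 0.69. Itfg2, a subunit of the KICSTOR complex that tethers a regulator of mTORC1, lies 53 places before Cdkn1b, and its median was 1.05 in double knockouts and -0.08 in stathmin knockouts on one probe (1.1 ± 0.22) and 1.06 ± 0.24 higher on another. Atf7ip, a partner of a histone methyltransferase, was 0.63 ± 0.14 higher on one probe without overlap. Its other probes differed by -0.55 ± 0.19, 0.2 ± 0.13 and 0.03 ± 0.21, so its probes disagreed. Styk1, a receptor-like kinase 16 places before Cdkn1b, differed by -1 ± 0.31 and was lower on 6 of 6 slides. Dera, an aldolase of deoxyribose phosphate 28 places after it, was 0.66 ± 0.19 higher on 6 of 6 slides.

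**Figure D4:**
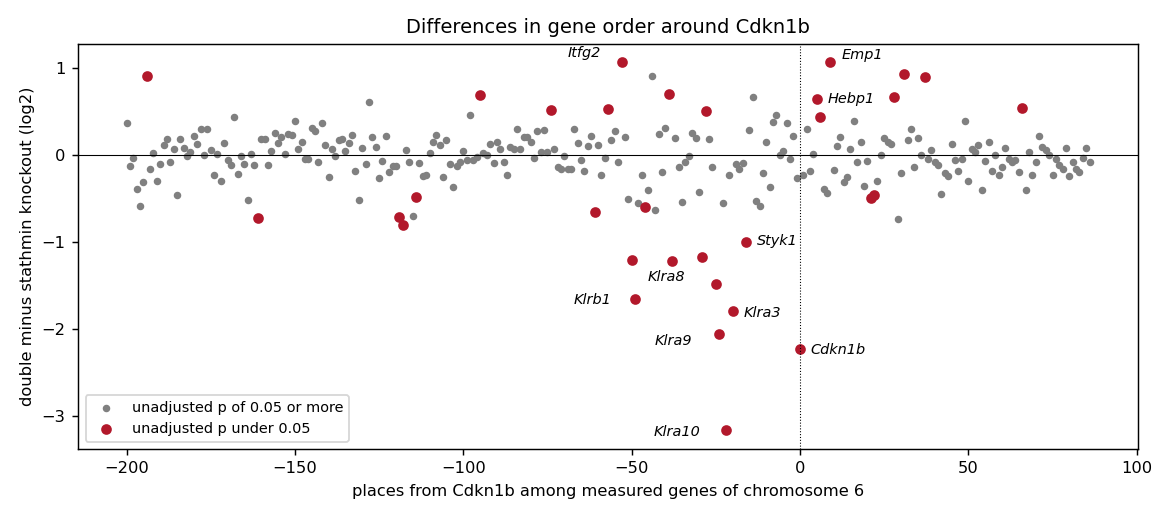
Difference in log2 ratio, double minus stathmin knockout (vertical axis), for measured genes of chromosome 6 by their place in gene order from Cdkn1b (horizontal axis, place 0). Red points have an unadjusted p under 0.05. They gather within 50 places on either side of Cdkn1b, with 9 below 0 and 2 above 0 before it, and 2 below 0 and 6 above 0 after it.

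Genes not placed near Cdkn1b were also among those with the lowest p. Cd99, a leukocyte surface glycoprotein, had a median of 0.28 in double knockouts and -0.63 in stathmin knockouts, 0.92 ± 0.16 higher, and 0.47 ± 0.19 on a second probe. Ufsp1, a protease of the ubiquitin-like modifier UFM1, read 2.57, 2.83 and 3.02 in double knockouts, against 1.81, 1.99 and 2.39 in stathmin knockouts, without overlap, a difference of 0.8 ± 0.15. Clip4, a protein with the CAP-Gly domain found in microtubule-binding proteins, read 1.62, 2.01 and 2.08 in double knockouts, against 0.96, 1.27 and 1.33 in stathmin knockouts. Its groups did not overlap either, with a difference of 0.72 ± 0.15 on this probe and 0.83 ± 0.3 on another. On the first probe it was -0.32 in the p27 knockout against wild type. The difference of the 2 differences was 1.04 ± 0.35 (limma, adjusted p 0.204). Both values lean on p27 knockout replicate 6, which read -0.72 where the other p27 knockouts read 0.72 to 1.05. That replicate was the dimmest array of the series, with a Cy5 99th percentile of 19.4 kilounits.

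Sts, which encodes steroid sulfatase and lies on the sex chromosomes, was 0.89 ± 0.19 higher, Krt87, a keratin, 1.03 ± 0.23, Serpinb11, a serpin, 0.76 ± 0.17, and Ptgfrn, a membrane partner of tetraspanins, 0.6 ± 0.14, with -0.2 ± 0.15 on its second probe. In log2 thymus Cy5 alone, the Krt87 probe averaged 8.79 in double knockouts and 8.68 in stathmin knockouts. Its raw Cy5 signal was 434 to 945 units and 231 to 1820 units in the same order, so the higher ratio was not matched in the thymus channel. Below 0 lay Fat3, an atypical cadherin, at -0.62 ± 0.14 on one probe and -0.1 ± 0.23 on another, Spaca1, a protein of the sperm acrosome, at -0.83 ± 0.22, and Clec4e, the macrophage receptor Mincle, at -0.81 ± 0.21. Acvr1c, a receptor of the TGF-beta superfamily, differed by -0.82 ± 0.21 on one probe and by -0.39 ± 0.27 and -0.22 ± 0.16 on the others. Nmral1, which binds NADPH, differed by -0.64 ± 0.17. Psme3ip1 read -0.91, -0.84 and -0.68 in double knockouts, against -0.5, -0.34 and 0.01 in stathmin knockouts, without overlap (-0.53 ± 0.14), while its 2 other probes differed by -0.05 ± 0.16 and 0.13 ± 0.22. All 12 lower and 12 higher genes chosen by p, the receptor genes among them, kept their direction on 6 of 6 slides, which was how they were chosen.

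Cell-cycle genes, the known field of p27, gave counts near the background of 2.47% of all genes at an unadjusted p under 0.05, which in lists of this size is about 0 or 1 gene. Of 23 genes of G1 cyclins, their kinases and the degradation of p27, 0 were called, with a median of 0.05 and a range of -0.34 to 0.55. Cdk6, a kinase of G1, differed by -0.34 ± 0.23, and Cdc25a, a phosphatase that activates such kinases, by 0.32 ± 0.18. Of 38 DNA replication genes 0 were called, with a median of 0 that became -0.28 with scaling between arrays, and Pcna, the sliding clamp, differed by 0.33 ± 0.25. Of 36 genes of G2 and mitosis 0 were called, with a median of 0.07 that became -0.27 with that scaling, and Mki67, the proliferation marker, had a median of 2.11 in double knockouts and 2.36 in stathmin knockouts, a difference of -0.16 ± 0.18 on one probe and 0.15 ± 0.19 on another. None of 13 E2F factors and pocket proteins was called either (0 of 13, median -0.02).

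The other CDK inhibitors did not stand apart. Cdkn1a (p21) had a median of -3.22 in double knockouts and -3.61 in stathmin knockouts, a difference of 0.31 ± 0.18, higher on 4 of 6 slides (limma, adjusted p 0.98). Cdkn1c (p57) differed by 0.08 ± 0.17. Among the INK4 inhibitors, Cdkn2a differed by -0.23 ± 0.18, Cdkn2b by 0.05 ± 0.18, Cdkn2c by 0.11 ± 0.16 and Cdkn2d by -0.05 ± 0.18. Beside the same 2.47% of all genes, 0 of 21 genes of the stathmin family and tubulins were called, with a median of 0.17, and of 24 p53 targets and 15 BCL2 family genes 0 were called, with medians of 0.01 and 0.08, the second -0.04 with scaling between arrays.

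T cell genes had medians near 0 that depended on the scaling. Double-positive thymocyte genes had a median difference of -0.02 with 10 of 20 above 0, and 31 genes of T cell receptor signalling a median of 0.02 with 0 called. Scaling between arrays, which equalises the spread of each array's ratios, put these medians at -1.34 and -1.17. Cd4, the co-receptor, lies 95 places before Cdkn1b and had a median of 4.92 in double knockouts and 4.3 in stathmin knockouts, a difference of 0.69 ± 0.24, and 0.33 ± 0.29 on a second probe. Foxn1, the master regulator of thymic epithelium, read 2.32, 2.63 and 3.41 in double knockouts, against 1.2, 2.05 and 2.56 in stathmin knockouts, 0.75 ± 0.27 higher on 6 of 6 slides. In cortical epithelium 14 of 15 genes lay above 0 (median 0.17, or -0.93 with scaling between arrays), with the list higher on 5 of 6 slides. Interferon-stimulated genes had a median of 0.26, with 23 of 27 above 0, where 47.2% of all genes were. At an unadjusted p under 0.05, 4 were higher and 1 lower, against 1.58% and 0.885% of all genes, and between 1 and 7 were higher with 1 slide left out. Irf7, a transcription factor of that response, differed by 0.68 ± 0.26 and Mx1, an antiviral GTPase, by 0.69 ± 0.27.

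Fat genes read lower in the double knockout, on 5 of 6 slides. All 24 adipocyte genes had a difference below 0, where 52.8% of all genes did, with a median of -0.7. The list's median level was 2.07 to 3.64 in double knockouts and 2.95 to 4.56 in stathmin knockouts, so the groups overlapped. Slides 1, 2, 3, 5 and 6 gave -0.67, -0.71, -1.42, -1.19 and -0.76, and slide 4 gave 0.89. At an unadjusted p under 0.05, 10 of the 24 were lower, against 0.885% of all genes, among them Dgat2, which makes triglyceride (-1 ± 0.33), Lpl, a lipase (-1.15 ± 0.44), and Cfd, adipsin (-0.88 ± 0.33). That count was 19 without slide 4, 3 without slide 2, 1 without slide 3 and 1 without slide 5.

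Brown fat genes followed, with 13 of 15 below 0, a median of -0.59 and a difference of 0.84 on slide 4, and Dio2, a thyroid hormone deiodinase, at -0.59 ± 0.2. Oxidative phosphorylation genes lay below 0 for 39 of 42 with a median of -0.26, and 1 was called, Ndufa6 (-0.4). In the authors' deposited values, 15 of the 42 were below 0, but those values follow spot brightness rather than the ratio and are not a like measure. The list was at -0.58, -0.35, -0.43, -0.58 and -0.35 on slides 1, 2, 3, 5 and 6 and at 0.56 on slide 4, and 22 of 42 were called lower without slide 4, where the calls lower over all 29528 probes also grew to 1019, against 262 with every slide. Skeletal muscle genes ran from -1.59 to 2.82 over the slides, high on slides 2 and 4 and low on slides 5 and 6. B cell genes ran from -1.22 to 1.03 and were highest on slide 4. The part of fat, muscle and B cell RNA in the differences of other genes was not tested.

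**Figure D5:**
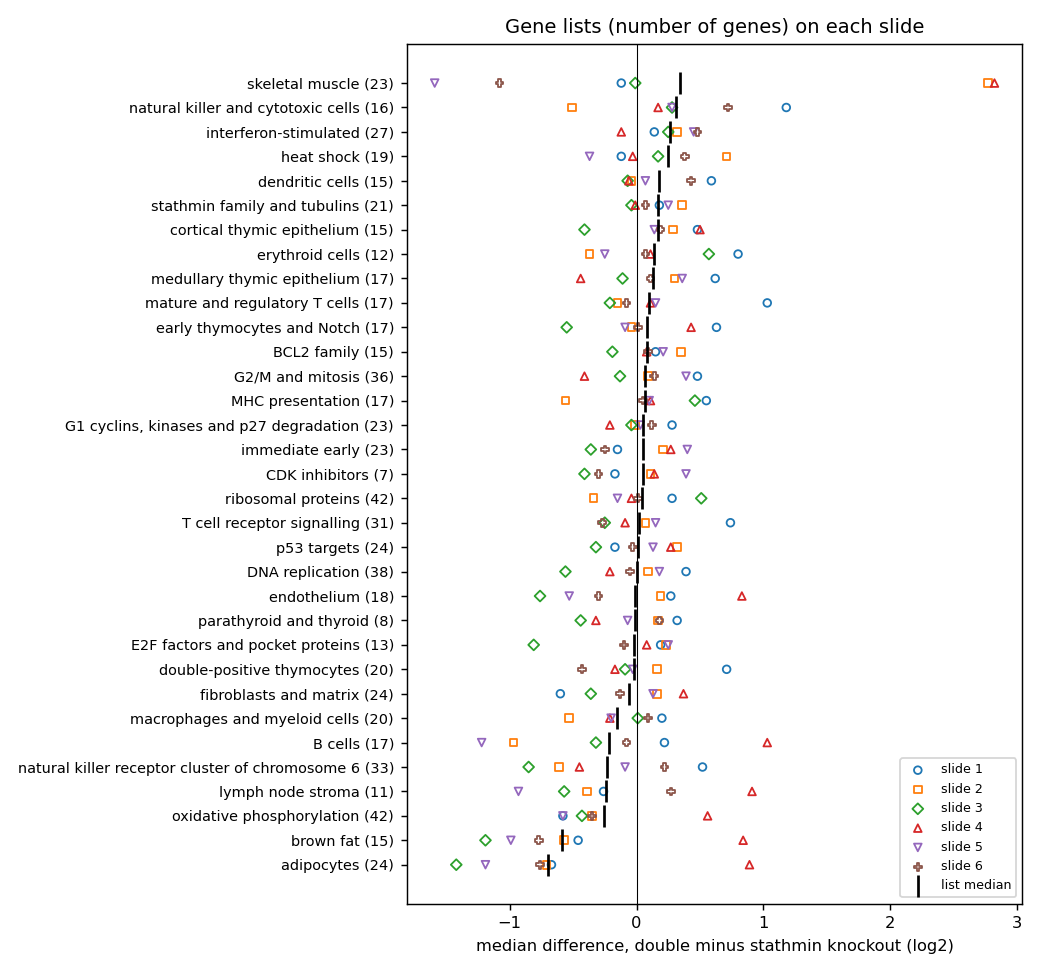
Median difference in log2 ratio, double minus stathmin knockout (horizontal axis), of 33 gene lists with the number of tested genes in brackets. Black bars are the median of the fitted differences and open symbols the median on each slide. Adipocyte genes lie lowest at -0.7 with slide 4 at 0.89, and the cell-cycle lists lie between -0.02 and 0.07.

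The difference seen with p27 loss where stathmin was absent was set against that where stathmin was present. It was taken as the double minus stathmin knockout less the p27 knockout minus wild type, on 24 arrays with slide as a block. The p27 knockout arrays were dimmer, with a Cy5 99th percentile of 19.4 to 170.6 kilounits, against 56.3 to 285.7 in wild type. No probe passed (0 of 29528, smallest adjusted p 0.204 by limma), and 6432 probes (21.8%) had an unadjusted p under 0.05. Cnot11, a subunit of a deadenylase complex, had the lowest p above 0, with 0.24 in the double against the stathmin knockout and -1.19 in the p27 knockout against wild type, a difference of 1.43 ± 0.29. Ank3, an ankyrin, followed with 0.65 and -0.81 (1.46 ± 0.32). On the other side stood Ppbp, a platelet chemokine, with -0.76 and 2.25 (-3.01 ± 0.68), and Tnfsf8, the CD30 ligand, with -0.37 and 1.06 (-1.43 ± 0.33). The major urinary protein genes Mup5 and Mup4 had differences of -1.49 and -0.97 in the double against the stathmin knockout and 1.42 and 1.57 in the p27 knockout against wild type. Except for Mup5, the larger part for the genes named here lay in the p27 knockout against wild type. How these genes read without the dimmest p27 knockout arrays, replicates 5 and 6 at 50.7 and 19.4 kilounits, was not examined.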

How the data were processed

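Thymus RNA of 24 mice was hybridised to 2-colour Agilent mouse arrays. The authors' scanner files hold spot and background intensity of both channels, which per the file headers were read with the scanner software Feature Extraction (version 9.1.3.1), and their deposited log10 ratio of Cy5 over Cy3. The authors' deposited table of log2 values, made in a way the sources used here do not give, follows spot brightness (correlation with mean log2 brightness at least 0.9798 on these 12 arrays, with the ratio at most 0.2269 in size), so its direction and centring are unknown. Its column medians ranged from 9.24 to 9.53 in double knockouts and 8.96 to 10.6 in stathmin knockouts. It served as an alternative.

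From the intensities, log2 ratios were made with limma 3.58.1 (R 4.3.3): normexp background (offset 50), loess within arrays, control and outlier spots left out, spots of a probe averaged. Probes were kept whose Cy5 signal stood well above background in 6 or more of the 12 arrays. The fit used the 12 arrays with genotype and slide as terms, and Benjamini-Hochberg adjustment over 29528 probes (threshold 0.05). The brightest probe stood for a gene in lists, and of 6729 genes with several tested probes 2971 had probes of both signs. Accessions of 22951 probes matched the GRCm38.p6 gene table, 6659 were named by symbol, 3109 by synonym and 8455 keep the file's name. That table gave gene order only, and genes listed on other scaffolds have no place. A fold of at least N compares the bright group with the lowest signal well above background per array.

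Members and lists were chosen with earlier results of these data known. Named genes were both targeted genes, the 12 lowest p in each direction with 6 of 6 slides alike, all CDK inhibitors, genes within 10 places of Cdkn1b, the lowest-p members of each list, and 5 each way in the difference of differences. Styk1 and Dera were added after their values were seen. Sex could not be a term. Xist, Tsix and Y-linked genes were not named, and other genes of the X chromosome were tested like the rest. The number of arrays limits the precision. The fit was run on simulated data with known changes. It recovered 46% of changes of 1 log2 unit and 100% of changes of 2, 3 and 5 log2 units. The simulated noise was normal and independent between probes and arrays. These shares therefore do not measure recovery on the real arrays, where Cdkn1b and Klra10 did not pass. The labels call the mice biological replicates.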

Additional observations from a re-analysis of the deposited data

Results flagged for a closer look

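Of 128 groups of 6 arrays examined, 12 held an array whose gap to the nearest other exceeded the limit that chance passes in about 1 group in 20. For Klra10, double knockout replicate 2 read 3.37, where the other double knockouts lay between 0.09 and 1.17, and stathmin knockout replicate 1 read 2.37, where the others lay between 4.51 and 4.82. For Klra9, stathmin knockout replicate 1 read 2.52 and the others 4.38 to 4.98. Double knockout replicate 2 also had the highest Cdkn1b value of its group, at 0.97.

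The remaining gene values were Krt87 in double knockout replicate 3, at 0.06, Hebp1 in stathmin knockout replicate 5, at 0.25, and Ptgfrn in stathmin knockout replicate 3, at -2.07. Among list medians, double knockout replicate 3 stood high for double-positive thymocyte genes, at 5.88, and for G1 genes, at 0.6. In stathmin knockouts, replicate 1 stood low for medullary epithelium genes, at 0.69, replicate 2 high for brown fat genes, at 3.89, and replicate 3 low for ribosomal protein genes, at 0.26. Stathmin knockout replicate 3 also had the lowest mean correlation with the other arrays, at 0.841.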

How the results depend on the processing

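The count of probes passing the adjusted threshold was 0 in the main analysis and under 17 of 19 alternatives. It was 1 (Klra10, adjusted p 0.0447) when all 24 arrays shared the spread and 2 (Klrb1a and Klrb1c, adjusted p 0.0454 each) on the deposited ratios centred on the median. At an unadjusted p under 0.05, the 425 higher and 262 lower probes became 227 and 149 with all 24 arrays, 251 higher with scaling between arrays, 38 and 95 on the authors' deposited table, 490 lower with array weights, 500 lower without the filter on dim probes, and 290 to 712 higher and 131 to 1019 lower with 1 slide left out in turn. The ends of the last range came without slide 5 and without slide 4. Cdkn1b ran from -2.7 to -0.51 under 19 alternatives, the latter on the authors' deposited table, with adjusted p from 0.31 to 1, and from -2.7 to -1.86 with 1 slide left out. With outlier spots kept, chosen after seeing the data, it was -2.08. Klra10 ran from -5.08 to -2.32 and Emp1 from 0.54 to 2.08. On the authors' deposited table Krt87 reversed to -0.72 and Serpinb11 to -0.06. Since that table follows spot brightness rather than the ratio, its values and signs do not test the direction of a ratio. The difference of differences, 0 probes under its 3 alternatives, reversed for Emp1 (0.07), Itfg2 (-0.17) and Atf7ip (-0.14) without p27 knockout replicates 5 and 6, and for Emp1 (0.15) and Atf7ip (-0.3) with array weights. The cause was not tested.

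Replicate numbers and slides are the same partition here, so a block on one is a block on the other. Same-slide deviations correlated by -0.26 to 0.27, and 1 of 6 arrays matched its own slide best. With no replicate block, 0 probes passed, 387 were higher and 294 lower at an unadjusted p under 0.05, and Cdkn1b differed by -2.14. List medians stayed within the spread between slides in 616 values and moved beyond it in 11. With scaling between arrays, T cell receptor genes lay at -1.17 and double-positive thymocyte genes at -1.34.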
